A study of Mus musculus with 6 samples.

Results

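The genes described here were silent in unstimulated wild-type (WT) fetal thymic stroma, were switched on by RANKL, and were not far below the lower stimulated WT value, or were above it, in stimulated stroma without Jmjd6. They were chosen from the gene expression table itself. An entry had to be below 0.1 FPKM in unstimulated WT stroma, at least 0.5 FPKM in both stimulated WT libraries, and in both stimulated Jmjd6-/- libraries at least 2/3 of the smaller stimulated WT value. FPKM is the number of sequenced fragments divided by transcript length and by the fragments mapped in that library. Of 22513 entries, 7491 were below 0.1 FPKM in unstimulated WT stroma, 259 of these were on in both stimulated WT libraries, and 70 of the 259 (27.0%) were kept in Jmjd6-/- stroma. A further 36 were kept in only 1 of the stimulated Jmjd6-/- libraries and 153 in neither.

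The study sequenced poly-A RNA from fetal thymus organ cultures of mice on the C57BL/6 background, to find genes controlled by the dioxygenase Jmjd6 in the stroma that induces Aire. All 6 cultures had been treated for 4 days with 2-deoxyguanosine (2-DG), which the study used to deplete haematopoietic cells. Macrophage genes were still present, as given below. There was 1 library each of WT without RANKL and Jmjd6-/- without RANKL, and 2 libraries each of WT and Jmjd6-/- stroma stimulated with RANKL. The knockout is a germline deletion, so every stromal cell type of those cultures lacked the gene. The labels call the repeated libraries technical duplicates while the study's text calls them samples, so p-values measure the spread between these libraries only, which may be technical.

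RANKL is the ligand of RANK, a receptor of the tumour necrosis factor receptor family that activates NF-kB through both its classical and its alternative branch. In the thymus this signal drives medullary epithelial cells to mature and to express Aire, the transcriptional regulator through which many genes of peripheral tissues are expressed in the medulla and shown to developing T-cells. Osteoprotegerin, encoded by Tnfrsf11b, is the soluble decoy receptor that binds RANKL and limits this signal.

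Jmjd6 had 26.3 FPKM in unstimulated and 25.9 and 32.5 in stimulated WT stroma, and 1.32 to 1.96 in the 3 Jmjd6-/- libraries. Aire lay just outside the group, at 0.142 FPKM in unstimulated WT and 78.0 and 79.7 in stimulated WT stroma, and at 0.473, 75.1 and 67.1 in Jmjd6-/- stroma. These values are RNA. The study reported much less Aire protein in Jmjd6-/- medullary epithelial cells, with an intron of the Aire transcript poorly removed. The thymic epithelial factor Foxn1 (80.8 to 117 FPKM) and the epithelial surface protein Epcam (156 to 209) were present in all 6 libraries. Of 9 markers of T-cells and thymocytes, the leukocyte gene Ptprc had 2.89 to 6.81 FPKM, Lck 0.390 to 1.91 and Cd4 0.332 to 1.45, while Cd3e had 0.0345 FPKM in 1 library and was listed at 0 in the others. Of 12 table entries of macrophage and dendritic cell genes, Lyz2 had 285 to 346 FPKM, C1qa 78.7 to 142 and Cd68 25.2 to 40.4. Flt3 had 0.0572 to 0.333 FPKM and Siglech was listed at 0. The list summed to 518 to 689 FPKM, so haematopoietic RNA remained in every library. Its part in the member values was not tested. The estimated depth ran from 15500000 to 31500000 fragments. In bulk stroma, fewer cells of a type and less RNA per cell cannot be told apart.

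RefSeq promoter windows (build GRCm38.p6) were available for 47 of the 70 members. The 150 bases before the start are shown for 5 of them. Clca2 and Slc26a9 are shown as transport genes with higher values in Jmjd6-/- stroma, Areg and Crnn as genes already detected in unstimulated Jmjd6-/- stroma, and Irf4 as a transcription factor of the group. Capitals mark an NF-kB-like match (GGG, any 2 bases, TTTCC) in Clca2, a match to the ETS core GAGGAAG in Areg and TATAAA in the other sequences and in Areg, on either strand. In Slc26a9, matches to TATAAA on both strands overlap. The windows lie at chr3:144819495-144819644 on the minus strand (Clca2, Clca3a2 in RefSeq), chr1:131743872-131744021 on the plus strand (Slc26a9), chr5:91139449-91139598 on the plus strand (Areg), chr13:30749083-30749232 on the plus strand (Irf4) and chr3:93144639-93144788 on the plus strand (Crnn).
Clca2: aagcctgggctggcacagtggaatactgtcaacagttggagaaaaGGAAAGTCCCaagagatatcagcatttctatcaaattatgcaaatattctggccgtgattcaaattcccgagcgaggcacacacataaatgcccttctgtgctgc
Slc26a9: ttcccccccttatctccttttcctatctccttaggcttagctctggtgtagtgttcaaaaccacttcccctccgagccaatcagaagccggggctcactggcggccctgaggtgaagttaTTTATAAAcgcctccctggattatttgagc
Areg: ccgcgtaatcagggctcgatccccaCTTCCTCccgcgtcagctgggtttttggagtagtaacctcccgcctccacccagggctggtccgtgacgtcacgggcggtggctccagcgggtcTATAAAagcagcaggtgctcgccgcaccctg
Irf4: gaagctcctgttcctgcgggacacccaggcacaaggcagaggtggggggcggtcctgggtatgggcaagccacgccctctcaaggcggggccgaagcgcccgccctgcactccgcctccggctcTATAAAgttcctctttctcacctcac
Crnn: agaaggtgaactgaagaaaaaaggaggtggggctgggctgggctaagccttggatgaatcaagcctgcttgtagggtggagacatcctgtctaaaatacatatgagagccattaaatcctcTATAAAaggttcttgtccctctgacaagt

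Within the whole windows, from 250 bases before to 50 bases after the start, the NF-kB-like letters occurred in 1 of 55 member windows (1.82%), that of Clca2, against 5.03% of the windows of WT off-to-on genes that were not kept, 1.35% of those of all entries off in unstimulated WT stroma and 1.62% of those of all table entries. GAGGAAG occurred in 3 (5.45%), those of Areg, Dnmt3l and Mmp7, against 15.08%, 12.9% and 13.27% in the same sets. TATAAA on the strand of the gene with its first base 35 to 24 bases before the start, a range chosen after the matches were seen, was found in 6 windows (10.91%), those of Areg, Crnn, Irf4, Mt4, Mmp7 and Slc26a9. Its share was 11.17% among the WT off-to-on genes that were not kept, 4.48% among all entries off in unstimulated WT stroma and 2.27% among all entries. An observed over expected CG content above 0.6 was found in 29.1% of member windows, in 10.6% of those of genes not kept, in 11.8% of those of all off entries and in 48.6% of those of all entries. Among the CG-rich member windows were those of Runx3, Cyp26a1, Pcdh10 and Slc2a6. These letters describe the windows and no binding was measured.

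The levels that the 70 genes reached with RANKL were mostly low. The mean over the 4 stimulated libraries was at least 5 FPKM in 9 members, at least 1 FPKM in 43 and below 1 FPKM in 27. The median member had 0.974 and 1.23 FPKM in stimulated WT and 1.49 and 1.27 FPKM in stimulated Jmjd6-/- stroma. All of these values were used to choose the members, and the counts and log2 changes of members in the next paragraphs are therefore a description.

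**Figure D1:**
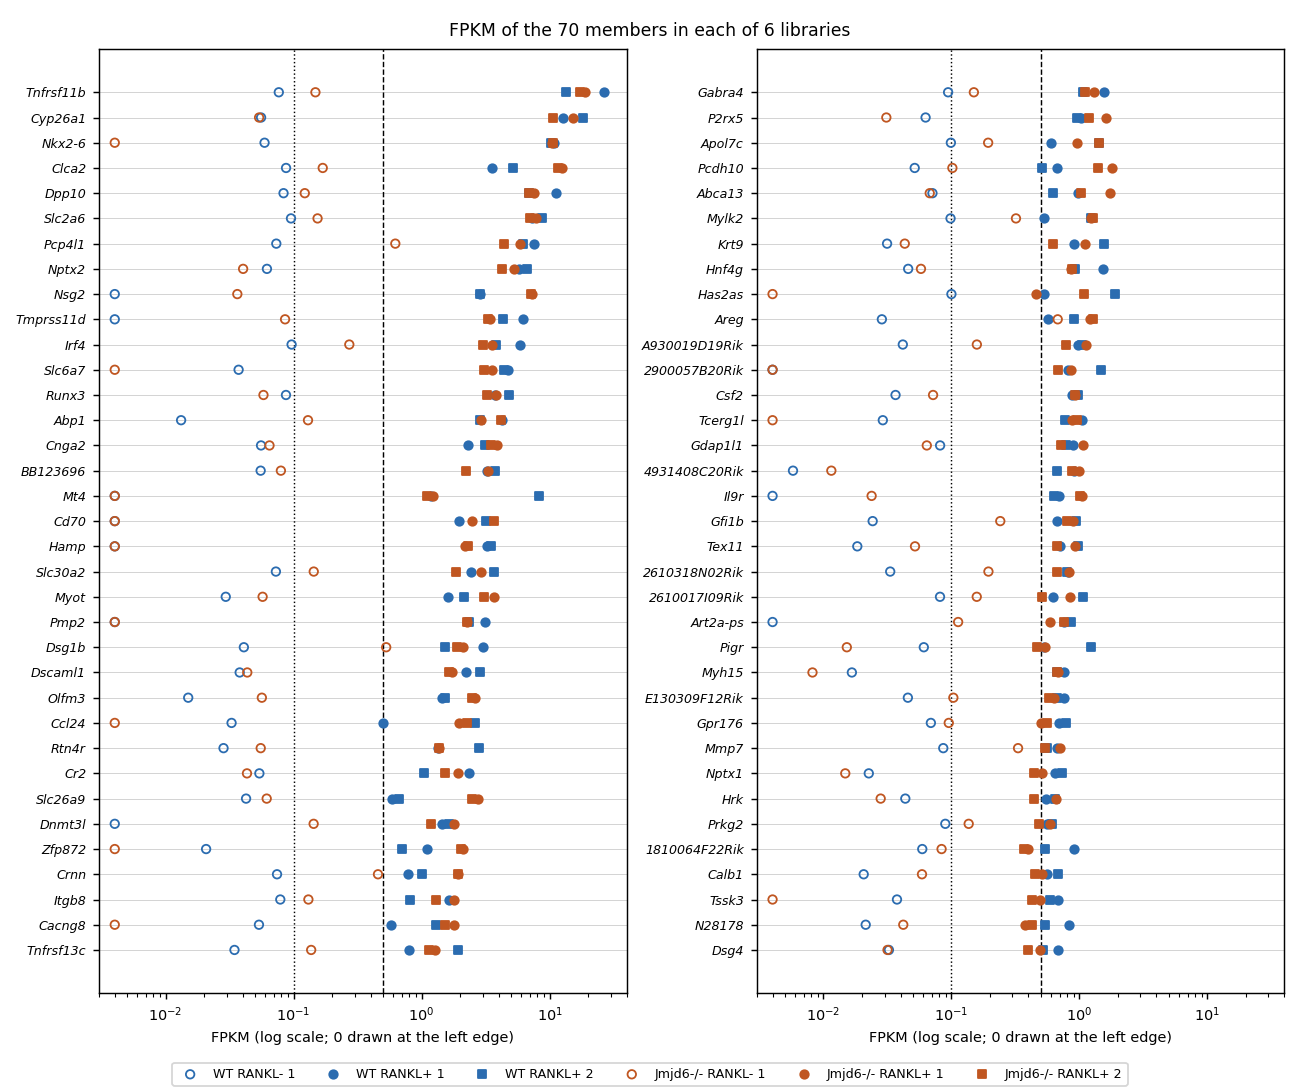
FPKM (log scale) of each of the 70 members in the 6 libraries, ordered by the mean over the 4 stimulated libraries. Open symbols are unstimulated and filled symbols stimulated, WT in blue and Jmjd6-/- in orange, and the dotted and dashed lines mark 0.1 and 0.5 FPKM. All filled symbols lie to the right of the open symbol of the same genotype, and 3 open orange symbols (Areg, Pcp4l1 and Dsg1b) pass the dashed line.

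By limma on log2(FPKM + 0.1), all 70 members were called higher with RANKL over both genotypes, against 10.5% of the 15894 genes tested, and 0 were called lower, against 4.11%. Their median log2 change was 3.09, with a range from 1.34 in Mmp7 to 6.50 in Cyp26a1, and the median over all genes was -0.02. Within Jmjd6-/- stroma, where 2 stimulated libraries were compared with 1 unstimulated library assumed to vary like them, 48 members were called higher against 3.75% of all genes, and 0 lower against 0.346%. Within WT stroma 63 were called higher against 6.05%, and 0 lower against 0.56%. Without the filter on low values only 2 members were called in Jmjd6-/- stroma, and Tnfrsf11b, Cyp26a1 and Slc26a9 were not among them. The median in Jmjd6-/- stroma was 3.08. These changes are understated for genes with low values, since 0.1 was added to each.

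Tnfrsf11b (XLOC_006821), the osteoprotegerin gene, had the highest level of the group. Its FPKM was 0.0766 in unstimulated and 26.8 and 13.4 in stimulated WT stroma, and 0.148 in unstimulated and 19.1 and 17.2 in stimulated Jmjd6-/- stroma. The stimulated means were 20.1 ± 9.43 FPKM in WT and 18.1 ± 1.31 in Jmjd6-/- stroma (SD, n = 2), and the genotypes overlapped. Its log2 change in Jmjd6-/- stroma was 6.20 (SE 0.42). The ligand itself, Tnfsf11, lay just outside the group because its lower stimulated WT value fell short of 0.5 FPKM, with 0.0474 in unstimulated WT and 0.509 in the other stimulated WT library, and with 0.0599, 0.333 and 0.639 FPKM in Jmjd6-/- stroma.

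The other receptors and immune surface proteins of the group were Cr2 (complement receptor 2), Itgb8 (an integrin subunit), Tnfrsf13c (the BAFF receptor), Il9r and Pigr (the polymeric immunoglobulin receptor). Art2a-ps, a transcribed ADP-ribosyltransferase pseudogene, was grouped with them. Their means over the stimulated libraries ran from 0.692 in Pigr to 1.71 FPKM in Cr2. In Il9r, the receptor of interleukin-9, both stimulated Jmjd6-/- libraries (1.04 and 1.02 FPKM) lay above both WT libraries (0.697 and 0.637). Pigr, a medullary epithelial marker, had 0.526 and 1.23 FPKM in WT and 0.540 and 0.467 in Jmjd6-/- stroma, so that its ratio depended on the WT library. Of the B-cell markers, Blnk had 1.43 and 2.95 FPKM without and between 14.3 and 18.8 FPKM with RANKL, and Cd79b had 0.392 and 0.383 FPKM without and between 0.570 and 1.46 FPKM with RANKL. Ms4a1 and Pax5 stayed below 0.2 FPKM in every library. The 9 neutrophil markers summed to 3.16 (WT) and 15.9 FPKM (Jmjd6-/-) without and to between 90.7 and 173 with RANKL. With RANKL most of the sum was S100a8, which had 0.586 (WT) and 0.268 FPKM (Jmjd6-/-) without it. Of the 8 tested, 5 rose with RANKL over both genotypes (limma), against 10.5% of all genes. Between the stimulated genotypes 1 was called higher and 2 lower in Jmjd6-/- stroma (0.516% and 1.82% of all genes). The granule gene Mpo was listed at 0 in both unstimulated libraries. It had 1.20 and 1.41 FPKM in stimulated WT and 0.0967 and 0.133 in stimulated Jmjd6-/- stroma. Ngp was also listed at 0 without RANKL and had 1.27 and 2.03 FPKM (WT) and 0.189 and 0.103 FPKM (Jmjd6-/-) with RANKL. Elane had 0.0643 FPKM in 1 library and was listed at 0 in the others. The part of other cell types in these values was not tested.

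The cytokines, chemokines and growth factors were Cd70, Csf2, Ccl24 and Areg. Csf2, which encodes GM-CSF, was at 0.0366 FPKM (WT) and 0.0719 FPKM (Jmjd6-/-) without RANKL, and at 0.868 and 0.979 (WT) and 0.929 and 0.927 (Jmjd6-/-) with RANKL. Both stimulated Jmjd6-/- values lay between those of the WT pair. Cd70, the membrane-bound ligand of the costimulatory receptor CD27, was listed at 0 in both unstimulated libraries and had 1.97 and 3.18 FPKM in WT and 2.47 and 3.71 in Jmjd6-/- stroma. Ccl24, a chemokine that attracts eosinophils, was uneven between the WT libraries, with 0.503 and 2.61 FPKM against 1.95 and 2.27 in Jmjd6-/- stroma, and the ratio of the Jmjd6-/- mean was 4.20 to the first WT library and 0.808 to the second. The Jmjd6-/- mean lay above the WT mean in all 4 of these genes, by ratios from 1.005 in Csf2 to 1.68 in Areg.

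Of the transcription and chromatin factors, Nkx2-6, an NK2 homeobox gene, came out the most even between genotypes. It had 0.0593 FPKM in unstimulated WT stroma and was listed at 0 in unstimulated Jmjd6-/- stroma. With RANKL it had 10.9 and 10.3 FPKM in WT and 10.4 and 10.7 in Jmjd6-/- stroma. The means were 10.6 ± 0.41 FPKM in WT and 10.6 ± 0.23 in Jmjd6-/- stroma (SD, n = 2). Nkx2-6 shares its table locus with 1700092C10Rik, and reads of the 2 entries may not be fully separated.

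Irf4, a factor of lymphocyte and dendritic cell differentiation and a target of NF-kB, had 5.87 and 3.81 FPKM in stimulated WT and 3.54 and 3.04 in stimulated Jmjd6-/- stroma, with all Jmjd6-/- values below WT. Runx3, a Runt-domain factor, had 3.76 and 4.80 FPKM in WT and 3.85 and 3.27 in Jmjd6-/- stroma. Dnmt3l, a cofactor of DNA methyltransferases, had 1.45 and 1.63 FPKM in WT and 1.79 and 1.19 in Jmjd6-/- stroma, but it overlaps Aire on the opposite strand. The described library preparation does not keep the strand, so its reads and those of Aire cannot be told apart where they overlap. Gfi1b, a zinc-finger repressor listed as a tuft cell marker, had a mean over the stimulated libraries of 0.829 FPKM. Of the 20 tuft genes tested, 2 rose with RANKL over both genotypes (limma, 10.5% of all genes) and 18 were not called. Hnf4g, a nuclear receptor of intestinal epithelium, had 1.52 and 0.917 FPKM in WT and 0.863 and 0.882 in Jmjd6-/- stroma. It was the 1 member among 7 off-to-on genes of the intestinal and hepatic list. Of 20 genes tested on that list, 7 were called lower and 0 higher in stimulated Jmjd6-/- stroma (1.82% and 0.516% of all genes).

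Cyp26a1, which breaks down retinoic acid, stood out among the enzymes. Its FPKM was 0.0557 in unstimulated and 12.8 and 18.2 in stimulated WT stroma, and 0.0537 in unstimulated and 15.2 and 10.7 in stimulated Jmjd6-/- stroma. The genotypes overlapped, with stimulated means of 15.5 ± 3.82 and 12.9 ± 3.17 FPKM (SD, n = 2). Abp1 (Aoc1 in RefSeq), the diamine oxidase that degrades histamine, had 4.28 and 2.88 FPKM in WT and 2.90 and 4.19 in Jmjd6-/- stroma. Hamp, which encodes the iron hormone hepcidin, was listed at 0 in both unstimulated libraries. It had 3.24 and 3.51 FPKM in WT and 2.17 and 2.29 in Jmjd6-/- stroma and lay closest to the inside of the 2/3 limit, with a ratio of 0.670. Nptx1 followed at 0.683, and Gpr183 (0.663) and Ipcef1 (0.663) were just outside.

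The neuronal and synaptic genes formed a group of 11. Dpp10, a regulator of potassium channels, had 11.2 and 6.96 FPKM in stimulated WT and 7.59 and 6.91 in stimulated Jmjd6-/- stroma. The neuronal pentraxins Nptx2 (5.82 and 6.69 FPKM in WT, 5.25 and 4.25 in Jmjd6-/- stroma) and Nptx1 (0.644 and 0.730, 0.506 and 0.440) both had their Jmjd6-/- values below their WT values. Nsg2, a protein of neuronal endosomes, went the other way. It was listed at 0 (WT) and at 0.0363 FPKM (Jmjd6-/-) without RANKL, and with RANKL it had 2.85 and 2.87 FPKM in WT and 7.31 and 7.11 in Jmjd6-/- stroma. In the same direction lay Olfm3 (1.43 and 1.54 FPKM in WT, 2.62 and 2.48 in Jmjd6-/- stroma) and Pcdh10, a protocadherin (0.663 and 0.515 in WT, 1.80 and 1.41 in Jmjd6-/- stroma). Pcdh10 shares its locus with an entry on the opposite strand.

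Among the 10 transporters and channels, 6 had a higher mean in Jmjd6-/- than in WT stroma. Slc26a9, an anion transporter of airway and gastric epithelium, had 0.0425 FPKM (WT) and 0.0616 FPKM (Jmjd6-/-) without RANKL. Once stimulated it reached 0.588 and 0.667 FPKM in the WT libraries and 2.78 and 2.46 FPKM in the Jmjd6-/- libraries, a ratio of 4.18 between the means. Clca2, a chloride channel regulator, had 0.0873 and 0.169 FPKM without RANKL, 3.53 and 5.21 FPKM in stimulated WT and 12.5 and 11.6 FPKM in stimulated Jmjd6-/- stroma, a ratio of 2.76. In both genes the stimulated libraries of the 2 genotypes did not overlap. By contrast Slc2a6, a glucose transporter of the facilitative family, had 7.34 and 8.68 FPKM in WT and 7.77 and 7.02 in Jmjd6-/- stroma. Slc6a7, the brain proline transporter, had 4.73 and 4.44 FPKM in WT and 3.58 and 3.05 in Jmjd6-/- stroma, while Cnga2, a cyclic-nucleotide-gated channel of olfactory neurons, had 2.31 and 3.15 FPKM in WT and 3.90 and 3.49 in Jmjd6-/- stroma. The olfactory marker gene Omp was just outside the group, with a lower stimulated WT value of 0.495 FPKM.

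Of the 7 genes of squamous and barrier epithelium, Crnn (cornulin, of the epidermal differentiation complex) had 0.790 and 1.01 FPKM in stimulated WT and 1.93 and 1.91 in stimulated Jmjd6-/- stroma. Tmprss11d, an airway serine protease, had 6.17 and 4.36 FPKM in WT and 3.43 and 3.32 in Jmjd6-/- stroma. Mt4, a metallothionein of squamous epithelium, had 1.19 and 8.32 FPKM in WT and 1.23 and 1.10 in Jmjd6-/- stroma. The ratio of its Jmjd6-/- mean was 0.980 to the first WT library and 0.140 to the second, so the second alone accounted for the low ratio of the means, 0.245. The desmogleins Dsg1b and Dsg4, cadherins of desmosomes whose genes are 26.4 kb apart, had 3.02 and 1.53 FPKM and 0.676 and 0.517 in WT, and 2.09 and 1.88 and 0.493 and 0.399 in Jmjd6-/- stroma.

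A separate list of 23 table entries of cornified squamous epithelium, keratins among them and none of them a member, also moved with genotype. Its summed level was 878 FPKM in unstimulated WT, 701 and 1275 in stimulated WT, 1923 in unstimulated Jmjd6-/- and 2510 and 2714 in stimulated Jmjd6-/- stroma. Most of each sum was the keratin gene Krt17, with 619, 522, 912, 1099, 1382 and 1443 FPKM in the same order. By limma with Benjamini-Hochberg adjustment, 7 of its entries were higher (0.516% of all genes) and 0 lower in stimulated Jmjd6-/- stroma. At an unadjusted p under 0.05, 18 of its 22 genes were higher and 1 lower. The list of 8 mesenchymal genes moved the other way, with sums of 639 to 702 FPKM in WT and 308 to 411 in Jmjd6-/- stroma, and so did that of 6 endothelial genes, with 18.1 to 30.5 and 6.48 to 10.4 FPKM. In each of these lists 2 genes were called lower in stimulated Jmjd6-/- stroma (1.82% of all genes), and 5 were lower at an unadjusted p under 0.05. Their part in the values of Crnn, Dsg1b and the other members was not tested.

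Muscle and germ line genes were few. Myot (myotilin) had 1.62 and 2.14 FPKM in WT and 3.68 and 3.10 in Jmjd6-/- stroma, Mylk2, a myosin light chain kinase, had 0.532 and 1.23 against 1.22 and 1.28, and Myh15, a myosin heavy chain, 0.751 and 0.667 against 0.678 and 0.664. Tex11, a meiosis gene, had 0.700 and 0.970 FPKM in WT and 0.920 and 0.673 in Jmjd6-/- stroma, and the testis kinase gene Tssk3 had 0.675 and 0.586 against 0.488 and 0.426. Zfp872, a zinc-finger gene on chromosome 9, had 1.10 and 0.701 FPKM in the WT libraries and a mean of 2.06 ± 0.06 (SD, n = 2) in Jmjd6-/- stroma. Its neighbour 1810064F22Rik, 4.7 kb away, had 0.907 and 0.541 against 0.400 and 0.371, the opposite order. This was, beside the desmogleins, the only other pair of members within 100 kb of each other.

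**Figure D2:**
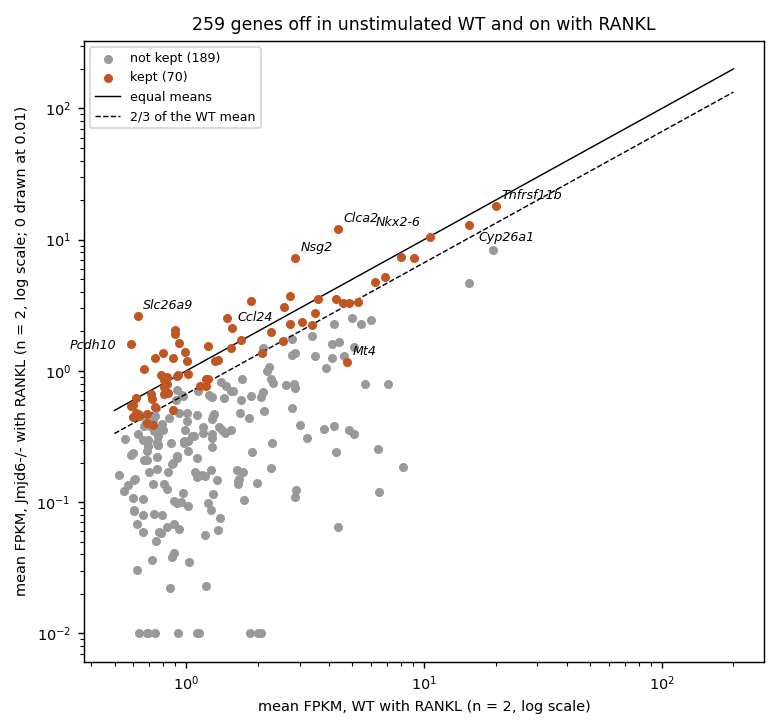
Mean FPKM (log scales) in stimulated WT (x axis) and stimulated Jmjd6-/- stroma (y axis) of the 259 genes off in unstimulated WT and on with RANKL, 70 kept (orange) and 189 not kept (grey). Clca2, Nsg2, Slc26a9 and Pcdh10 lie above the line of equal means, and members below the dashed line of 2/3, such as Mt4, met the rule because it used the smaller WT value and not the mean.

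In the comparison of stimulated genotypes, both Jmjd6-/- libraries lay above both WT libraries in 14 members, against 24.5% of all genes tested, and below both in 18, against 26.2%. The groups overlapped in the other 38. The Jmjd6-/- mean was higher in 26 members and at least 1.5 times the WT mean in 12. Shares over all genes were not computed for these counts of means, nor for those by role group above. The rule sets a floor under the Jmjd6-/- values and no ceiling. The median log2 difference of the members was -0.11, and that of all genes was 0.01.

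By limma with Benjamini-Hochberg adjustment, Slc26a9 was the 1 member called higher in stimulated Jmjd6-/- stroma (background 0.516% of genes), with a log2 difference of 1.90 (SE 0.26). It was not called in 6 of 12 alternative settings, among them those without Jmjd6-/- RANKL replicate 1, Jmjd6-/- RANKL replicate 2 or WT RANKL replicate 2. No member was called lower (background 1.82%), and 8 of the 70 members had an unadjusted p under 0.05 in either direction, as had 2987 of all 15894 genes. These were Slc26a9, Clca2 (log2 difference 1.47, SE 0.25), Nsg2 (1.30, SE 0.22), Pcdh10 (1.31, SE 0.30), Zfp872 (1.14, SE 0.31), Crnn (1.03, SE 0.26), Myot (0.83, SE 0.27) and Olfm3 (0.74, SE 0.24), all with the higher value in Jmjd6-/- stroma. The contrast is the one that chose the members, so these values are a description.

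The replicates of the 2 genotypes were not equally close. The stimulated WT libraries differed by more than 2-fold in 11 members and the Jmjd6-/- libraries in 1, Has2as. The median absolute log2 difference between replicates was 0.41 in WT and 0.17 in Jmjd6-/- stroma for the members, and 0.28 and 0.08 over 12587 genes averaging at least 1 FPKM. Has2as, an antisense transcript of the hyaluronan synthase gene Has2, had 0.532 and 1.90 FPKM in WT and 0.454 and 1.09 in Jmjd6-/- stroma. It shares its table locus with Has2, and without strand the reads of the pair cannot be told apart where they overlap. It was also the member nearest to the limit for unstimulated WT, at 0.09997 FPKM, followed by Apol7c at 0.0990. Adamts14 (0.101) and Krt76 (0.101) were just outside.

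**Figure D3:**
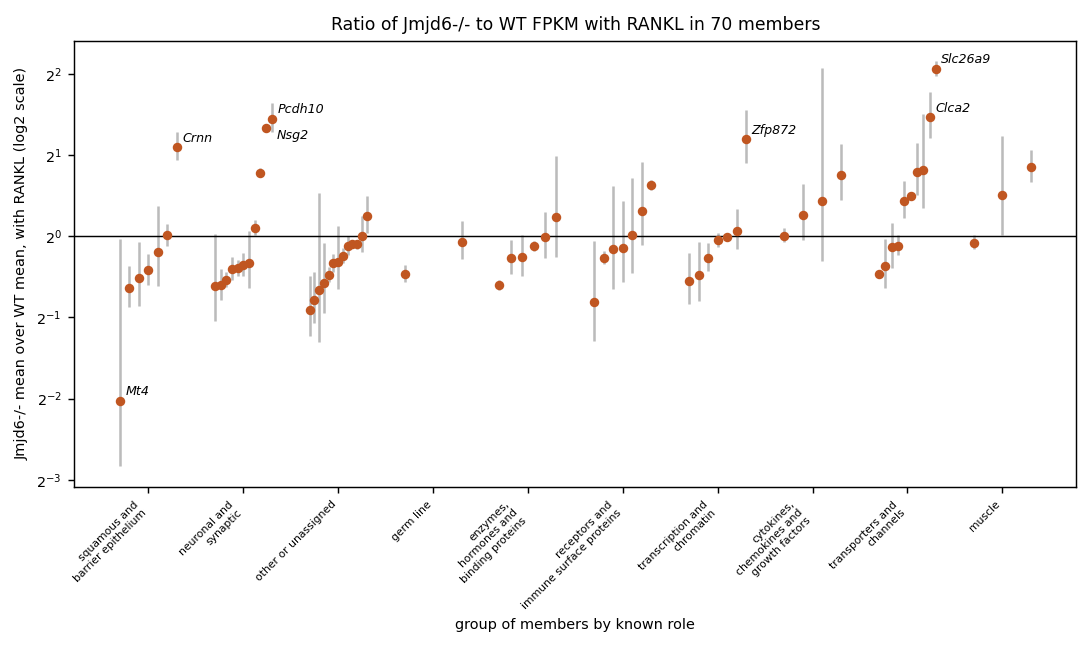
Ratio of the Jmjd6-/- mean to the WT mean with RANKL (log2 scale) for each of the 70 members, grouped by known role and ordered within each group. Grey bars run between the ratios to each WT library alone. Slc26a9 (4.18) and Mt4 (0.245) are the extremes, and the grey bars are long for Mt4 and Ccl24, whose WT libraries differ most.

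The unstimulated Jmjd6-/- library was the only one that the rule did not use. In it, 44 of the 70 members (62.9%) were below 0.1 FPKM, compared with 153 of the 189 off-to-on genes that were not kept (81.0%) and 93.9% of the 7491 entries off in unstimulated WT stroma. The sets also started from unlike levels. In unstimulated WT stroma 10 of the 70 members, 78 of the 189 genes not kept and 5405 of the 7491 off entries were listed at 0. With 1 library there is no test of these shares. The member value was higher in unstimulated Jmjd6-/- than in unstimulated WT stroma in 45 members, lower in 20 and equal in 5, with medians of 0.0602 and 0.0421 FPKM, the WT values being capped by the rule. In the genes not kept the Jmjd6-/- value was higher in 72, lower in 62 and equal in 55. The estimated depth was 31500000 fragments in the unstimulated WT and 15600000 in the unstimulated Jmjd6-/- library, so 1 fragment gave a higher FPKM in the latter. Tnfrsf11b, for example, had about 6.4 and 6.2 fragments for 0.0766 and 0.148 FPKM. At the estimated depth, 33 members in the WT library and 36 in the Jmjd6-/- library rested on 3 or fewer fragments, where a difference of a few fragments is within counting error.

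The 5 members with the highest FPKM in unstimulated Jmjd6-/- stroma were Areg, Pcp4l1, Dsg1b, Crnn and Mmp7. Areg, which encodes the EGF receptor ligand amphiregulin, had 0.0286 FPKM (WT) and 0.677 FPKM (Jmjd6-/-) without RANKL, or about 1 and 11 fragments. Stimulated, it had 0.565 and 0.914 FPKM in WT and 1.21 and 1.27 in Jmjd6-/- stroma. Its log2 change with RANKL within Jmjd6-/- stroma, 0.79 (SE 0.38), did not pass the test.

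Pcp4l1 (Purkinje cell protein 4-like 1) had 0.0732 FPKM (WT) and 0.623 FPKM (Jmjd6-/-) without RANKL, and 7.49 and 6.18 (WT) and 5.89 and 4.44 (Jmjd6-/-) with RANKL. Dsg1b had 0.0408 and 0.529 FPKM in the unstimulated libraries, about 5 and 32 fragments, the most of these 5 genes. Its log2 change within Jmjd6-/- stroma was 1.73 (SE 0.45) and did not pass the test. Crnn had 0.0742 and 0.456 FPKM and Mmp7, the matrix metalloproteinase matrilysin, 0.0863 and 0.332, the last pair being only about 2.5 and 4.7 fragments. Mmp7 had 0.674 and 0.561 FPKM in stimulated WT and 0.701 and 0.543 in stimulated Jmjd6-/- stroma. In Areg and Mmp7 the unstimulated Jmjd6-/- value was at least 0.5 times the stimulated Jmjd6-/- mean, and in all 70 members both stimulated Jmjd6-/- libraries were above the unstimulated one.

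**Figure D4:**
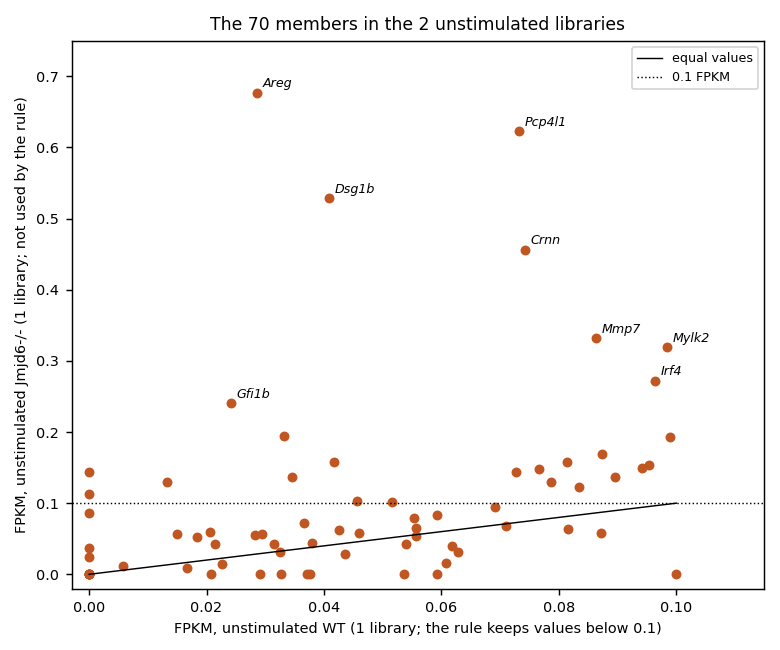
FPKM of the 70 members in unstimulated WT (x axis) and unstimulated Jmjd6-/- stroma (y axis), 1 library each. The dotted line marks 0.1 FPKM, with 44 members below it, and Areg (0.677), Pcp4l1 (0.623), Dsg1b (0.529), Crnn (0.456) and Mmp7 (0.332) are the highest.

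The genotype-by-RANKL difference, which rests on the unstimulated libraries, gave 0 called members and 0 called genes by limma (background 0% in each direction). At an unadjusted p under 0.05 there were 11 members and 664 genes of 15894. The member values ran from -2.47 (SE 0.41) in Pcp4l1 and -2.27 (SE 0.63) in Dsg1b to 1.72 (SE 0.46) in Slc26a9, with negative values for a smaller response in Jmjd6-/- stroma.

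The wider RANK and NF-kB pathway was described with a list of 35 genes, of which Tnfrsf11b is the only member. Over both genotypes 16 of the 35 rose with RANKL and 0 fell at an adjusted p under 0.05 (limma), against 10.5% of all genes that rose. In Jmjd6-/- stroma alone 10 rose (3.75% of all genes) and 0 fell, and in WT stroma alone 11 rose (6.05% of all genes) and 0 fell. No gene of the list was lower at an unadjusted p under 0.05 in these 3 fits. Between the stimulated genotypes 0 of the 35 were called by limma, with a median log2 difference of 0.00, and at an unadjusted p under 0.05 there were 2 higher and 4 lower in Jmjd6-/- stroma. For a difference in response 0 were called, with 1 at an unadjusted p under 0.05. The median log2 change with RANKL over both genotypes was 0.39 in the list and -0.02 over all genes.

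The receptor gene Tnfrsf11a, which encodes RANK, had 1.84 FPKM in unstimulated and 14.9 and 12.6 in stimulated WT stroma, and 2.41, 16.1 and 13.7 in Jmjd6-/- stroma. Its log2 change over both genotypes was 2.70 (SE 0.14, adjusted p = 8.356e-05 by limma). Traf1, an adaptor of these receptors, rose by 3.51 (SE 0.14), and Cd40, another receptor that acts on medullary epithelium, by 1.88 (SE 0.12). The inhibitors Nfkbie (1.55, SE 0.14) and Nfkbia (1.14, SE 0.11) rose, as did the subunits of the alternative branch, Relb (0.95, SE 0.17) and Nfkb2 (0.88, SE 0.10). In unstimulated WT stroma these genes had from 0.494 FPKM (Traf1) to 70.4 FPKM (Nfkbia), whereas the rule held the members below 0.1 FPKM there. In unstimulated Jmjd6-/- stroma Traf1 had 0.599 FPKM, less than the members Areg (0.677) and Pcp4l1 (0.623).

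The other off-to-on genes of the pathway list were Ccl20 and Ltb, which were not kept. The chemokine gene Ccl20 had 0.0534 FPKM in unstimulated and 5.62 and 3.16 in stimulated WT stroma, and was listed at 0 in unstimulated and had 1.93 and 1.42 FPKM in stimulated Jmjd6-/- stroma. Ltb, which encodes lymphotoxin beta, had 0.0497 FPKM in unstimulated and 0.916 and 0.915 in stimulated WT stroma, and 0, 0.287 and 0.159 FPKM in Jmjd6-/- stroma. In Tnfrsf11b the stimulated Jmjd6-/- values lay within the WT range. The rule sorted these 3 genes by those same values, so the contrast between them was set by the choice of members.

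**Figure D5:**
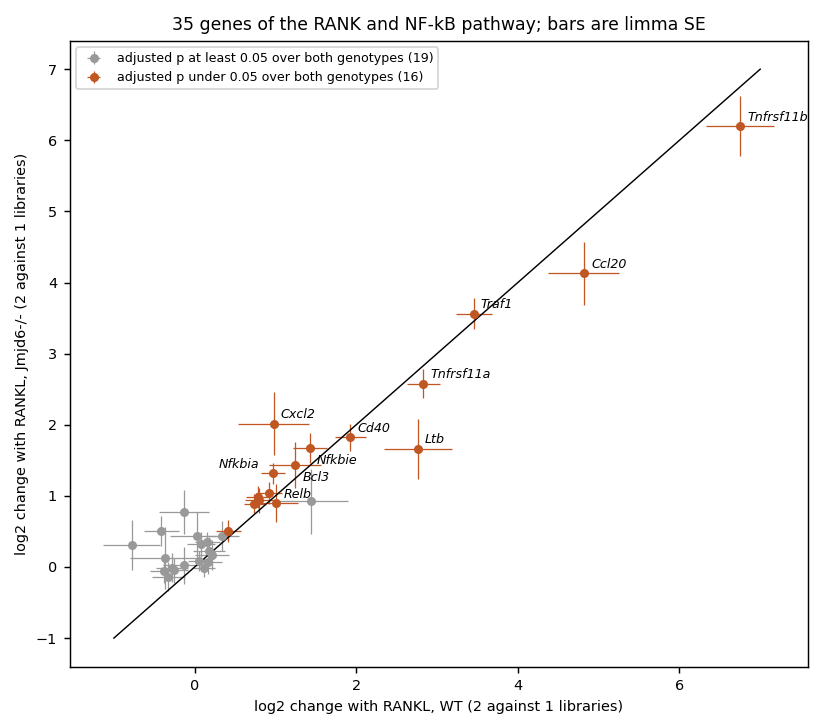
Log2 change with RANKL of 35 RANK and NF-kB pathway genes in WT (x axis) and Jmjd6-/- stroma (y axis), each from 2 stimulated against 1 unstimulated library, with limma standard errors. Orange points are the 16 genes that rose over both genotypes, the line marks equal changes, and Ccl20 and Ltb lie below it.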

How the data were processed

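The authors made paired-end poly-A libraries, mapped the reads to mm10 with TopHat2 2.0.10 and computed FPKM per gene with Cufflinks 2.1.1 (versions per the submitters' processing notes). They set a strand-specific library type although the described preparation keeps no strand. The deposited FPKM values were used without scaling. Depth was estimated from steps between FPKM values below 0.15 and transcript length, and covers counting error only. Groups came from the sample labels. Their treatment field gives RANKL for every sample, whereas titles and the stimulation field separate unstimulated cultures.

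limma 3.58.1 (R 4.3.3) was fitted to log2(FPKM + 0.1) of 15894 genes that averaged at least 0.1 FPKM. The variance was fitted with a trend in the mean, p-values were adjusted by Benjamini-Hochberg, and genes were called at an adjusted p under 0.05. Genotype was a term in the fit over both genotypes. The other contrasts used a mean for each of the 4 conditions. In simulated data, 106 genes were called between stimulated genotypes, including all 100 that carried a true log2 difference of 3. The member differences were smaller (-1.38 to 1.90), and the simulation gave both genotypes the same spread. Recovery of differences of that size was not assessed.

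The members, role groups and gene lists were chosen with earlier results of these data known. Genes named were the 15 members with the highest stimulated mean, members on the lists, called members, the 5 highest in unstimulated Jmjd6-/- stroma, entries nearest each threshold, and relatives or neighbours among the members. Other genes were named after their values were seen. Alternatives were other pseudocounts, filters, scalings, thresholds, no trend, leaving out each RANKL library and the replicate number as a term. Promoter windows came from RefSeq (GRCm38.p6), and 23 members had none. One marker of a list is not reported here.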

Additional observations from a re-analysis of the deposited data

How the results depend on the processing

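The rule gave 39 members with unstimulated WT below 0.05 FPKM, 29 with stimulated WT of at least 1 FPKM and 31 with stimulated Jmjd6-/- of at least the smaller WT value. Of these, 29, 18 and 18 were below 0.1 FPKM in unstimulated Jmjd6-/- stroma, and 70 of 101 were when 0.5 times the WT value was enough. Leaving out 1 stimulated library gave 63 to 93 members and 36 to 58 below 0.1 FPKM. Scaling gave 68 or 70 members.

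Members called higher over both genotypes were 31 with a filter at a mean of 1 FPKM, which leaves fewer members to test. Those called in Jmjd6-/- stroma were 27 with that filter and 2 without any filter. Between stimulated genotypes, members called higher were 3 with 1 added, 0 with 0.01 added, 0 with no filter, 0 with the filter at 1 FPKM and 2 without the trend. Without 1 library they were 0 to 5 (5 without WT RANKL replicate 1, 0 without either Jmjd6-/- replicate), and those called lower 0 to 2. Over all genes, calls without the filter were 788 higher over both genotypes, 17 in Jmjd6-/- stroma, 1 between stimulated genotypes and 93 for the difference in response, against 1675, 596, 82 and 0 with it. The cause of these shifts was not tested, other than where fewer genes or libraries were used.

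With the replicate block, 4 members were called higher and 1 lower between stimulated genotypes, and 1 lower for the difference in response. Same-numbered libraries did not deviate together (r = -0.04 over 15894 genes). Each genotype gave only 1 difference between replicates, so this cannot decide whether the numbers pair the samples. Members at low FPKM are limited by depth, as 36 of 70 rest on 3 or fewer fragments in unstimulated Jmjd6-/- stroma.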
